A study of Mus musculus with 9 samples.

Results

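This account covers the enzymes that make, use and recycle glutathione, the thioredoxin system, the enzymes that remove superoxide and peroxides, and the NRF2 and KEAP1 regulators, in the lateral nasal gland of the mouse. Members were taken by gene symbol: 12 families (Gsta, Gstm, Gstp, Gstt, Gstk, Gsto, Gstz, Mgst, Gpx, Prdx, Txnrd and Sod, each followed by a digit) and 11 single genes (Gclc, Gclm, Gss, Gsr, Txn1, Nqo1, Hmox1, Srxn1, Cat, Keap1 and Nfe2l2). They were 49 of the 12393 genes that the array names by a single symbol, and took up 79 of its 22626 probe sets. The rule used no measured value.

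The lateral nasal gland is a large secretory gland of the nose. Its RNA was hybridised to 9 1-colour arrays, 3 from Cyp2g1-null mice on a mixed 129/Sv and C57BL/6 background, 4 from wild-type B6 (C57BL/6) mice and 2 from wild-type 129/Sv mice. All groups were males aged 2 to 3 months, and each array held RNA from the pooled glands of 10 mice. Both strains served as controls because the null line carries a mixture of their alleles, so a difference from either strain can be a difference of background as well as of genotype, and these cannot be told apart. Cyp2g1 encodes a cytochrome P450 of the nasal mucosa.

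Glutathione is a tripeptide thiol made by glutamate-cysteine ligase (Gclc and Gclm) and glutathione synthetase (Gss). Glutathione S-transferases couple it to reactive compounds, many of them produced by cytochrome P450s, while glutathione peroxidases and peroxiredoxins use thiols to reduce peroxides. Glutathione reductase and the thioredoxin reductases regenerate these thiols with NADPH. NRF2 (Nfe2l2) is a transcription factor held at a low level by KEAP1 and released by electrophiles and oxidants, and it acts on many of these genes through the antioxidant response element. Nasal glands and mucosa meet inhaled chemicals directly and are rich in such enzymes.

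Upstream sequence is shown for Mgst1 and Txnrd1, which differed between groups and carry the core of that element, for Gclm, a classical NRF2 target, and for Gsto1, which differed between groups and has no match. For Mgst1 and Txnrd1 only the window with a match is shown; the other Mgst1 window and the other 2 Txnrd1 windows had 0 matches. Each stretch is the 250 bases before a RefSeq transcription start (GRCm38.p6), read 5′ to 3′ on the strand of the gene, which is the plus strand for all of them. Capitals mark the core motif TGACNNNGC, searched on both strands; the matches shown lie on the opposite strand. The stretches are chr6:138140277-138140526 for Mgst1, chr10:82858956-82859205 for Txnrd1, chr3:122245307-122245556 for Gclm and chr19:47854723-47854972 for Gsto1.
Mgst1: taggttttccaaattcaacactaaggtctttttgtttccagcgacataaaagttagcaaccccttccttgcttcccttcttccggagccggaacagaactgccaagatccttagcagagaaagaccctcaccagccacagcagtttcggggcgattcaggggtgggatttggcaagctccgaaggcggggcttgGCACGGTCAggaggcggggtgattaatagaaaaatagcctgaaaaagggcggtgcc
Txnrd1: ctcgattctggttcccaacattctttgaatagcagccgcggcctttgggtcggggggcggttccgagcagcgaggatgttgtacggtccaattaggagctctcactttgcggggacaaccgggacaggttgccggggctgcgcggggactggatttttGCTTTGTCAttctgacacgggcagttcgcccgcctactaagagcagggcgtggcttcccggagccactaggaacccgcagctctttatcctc
Gclm: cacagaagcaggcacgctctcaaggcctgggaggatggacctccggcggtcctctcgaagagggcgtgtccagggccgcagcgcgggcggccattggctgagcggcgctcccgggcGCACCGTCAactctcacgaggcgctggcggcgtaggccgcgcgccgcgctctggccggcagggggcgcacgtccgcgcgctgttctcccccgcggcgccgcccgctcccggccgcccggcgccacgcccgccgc
Gsto1: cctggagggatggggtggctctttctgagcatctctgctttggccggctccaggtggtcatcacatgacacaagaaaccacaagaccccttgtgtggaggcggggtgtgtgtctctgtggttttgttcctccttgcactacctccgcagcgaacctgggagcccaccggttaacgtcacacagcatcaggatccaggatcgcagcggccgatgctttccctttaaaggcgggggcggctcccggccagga
A RefSeq window was found for 43 of the 49 genes, with 56 windows in all. The motif was in 8 of these 56 windows (14.3%), those of Gclm, Gsta3, Gstm5, Gstm7, Mgst1, Nfe2l2, Sod1 and Txnrd1. It was in 10.2% of all 32851 mouse windows of the same length. By gene, 18.6% of members with a window had it, against 11.5% of all genes. Of the 9 member genes that differed between groups in any comparison, 7 had a window and 2 of these, Mgst1 and Txnrd1, had the motif. No other motif was searched, and a match describes letters in this window only.

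A signal here is the authors' linear intensity of a probe set. Tests used log2(signal + 16), and all fold changes are on that scale, which understates the change of dim probe sets. Probe sets above their array's median on at least 2 arrays were tested, which kept 56 member probe sets of 41 genes among 12575. The two-sided limma p of each was adjusted by the Benjamini-Hochberg method across those 12575, and a probe set was called when its adjusted p was under 0.05. The p-values measure the spread between pools. Signals of different probe sets are not comparable as amounts of RNA.

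Array medians lay between 518.6 and 550.1, and correlations between arrays between 0.925 and 0.942. Cyp2g1 had signals of 55.7, 141 and 201 in null arrays, against 5917, 748, 2007 and 2799 in B6 and 208 and 981 in 129/Sv arrays. The 3 null arrays gave the lowest signals, although the brightest of them came close to 129/Sv array 1. No source used here says where this probe set lies relative to the deletion. Markers of the gland itself were present on every array, with Obp1a, an odorant-binding protein, between 112206 and 150146. Some summed marker signals moved with the groups. The summed signal of 7 ciliated epithelium markers was 19690 to 20754 in null arrays, against 12367 to 15394 in B6 and 13700 to 16061 in 129/Sv arrays. For 12 macrophage and neutrophil markers it was 45860 to 52620 in null, 40346 to 44028 in B6 and 43775 to 49820 in 129/Sv arrays. Most of that sum came from Lyz2, with 31183, 36646 and 34516 in null and 24261, 23238, 22601 and 26705 in B6 arrays. The list as a whole did not rise with it. Its 14 tested probe sets had a median log2 fold change of -0.27 for null minus B6. The 11 gland markers summed to 526538 to 653220 in null, 435476 to 585081 in B6 and 377994 to 402924 in 129/Sv arrays. Much of the gap to 129/Sv lay in Scgb1b27 (94093 to 124356 in null, 15680 to 18404 in 129/Sv) and Scgb2b27 (71850 to 102606 and 19196 to 23335). Car6 ran from 29312 to 70058 in null and from 388 to 8018 in B6 arrays, and was 10385 and 66481 in 129/Sv arrays. Lcn3, of the same list, went the other way. It had 939, 1653 and 1252 in null, 2453, 2412, 2857 and 3269 in B6, and 1743 and 2088 in 129/Sv arrays. The 9 tested gland probe sets had a median log2 fold change of -0.01 for null minus B6 and 0.515 for null minus 129/Sv. The part of cell composition in the results below was not tested, and in pooled tissue fewer cells of a type cannot be told from less RNA per cell.

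Few of the tested members were called in null glands, and 8 of the 49 genes were not tested. Against B6, 1 of 56 member probe sets was called in null glands (Mgst1, higher), where 2.18% of all probe sets were called and 1.11% were called higher. Against 129/Sv, 6 of 56 were called (background 2.04%). Of these, 5 were higher (background 1.41%), those of Gsto1, Prdx2, Prdx3 and Gsr, with Gsto1 counted on both of its probe sets. The other, Mgst1, was lower (background 0.628%). Against the mean of both strains, 2 were called, both higher (Gsto1 and Prdx2; background 1.22% in either direction, 0.755% higher and 0.469% lower). At an unadjusted p under 0.05, 5 of 56 members passed against B6 (8.93%, background 14.4%). Against 129/Sv 13 passed (23.2%, background 12%), and against the mean 6 (10.7%, background 11.9%).

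The strains themselves differed more often, with 9 of 56 probe sets called between B6 and 129/Sv (background 5.19%). Gsto1 on both probe sets, Gpx3, Prdx2, Prdx3 and Txnrd1 were the 6 higher in B6 (background 2.92%). Mgst1, Gstt2 and Cat were the 3 lower in B6 (background 2.27%). At an unadjusted p under 0.05, 17 of 56 members passed (30.4%, background 17.4%). No member differed from both strains in the same direction (0 of 56 with limma, background 0.0954%), and 1 did at an unadjusted p under 0.05 (background 2.51%). Mgst1 differed from them in opposite directions (background 0.0875%). Comparisons that share arrays are not independent, so the null values of each gene are given beside both strains.

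**Figure D1:**
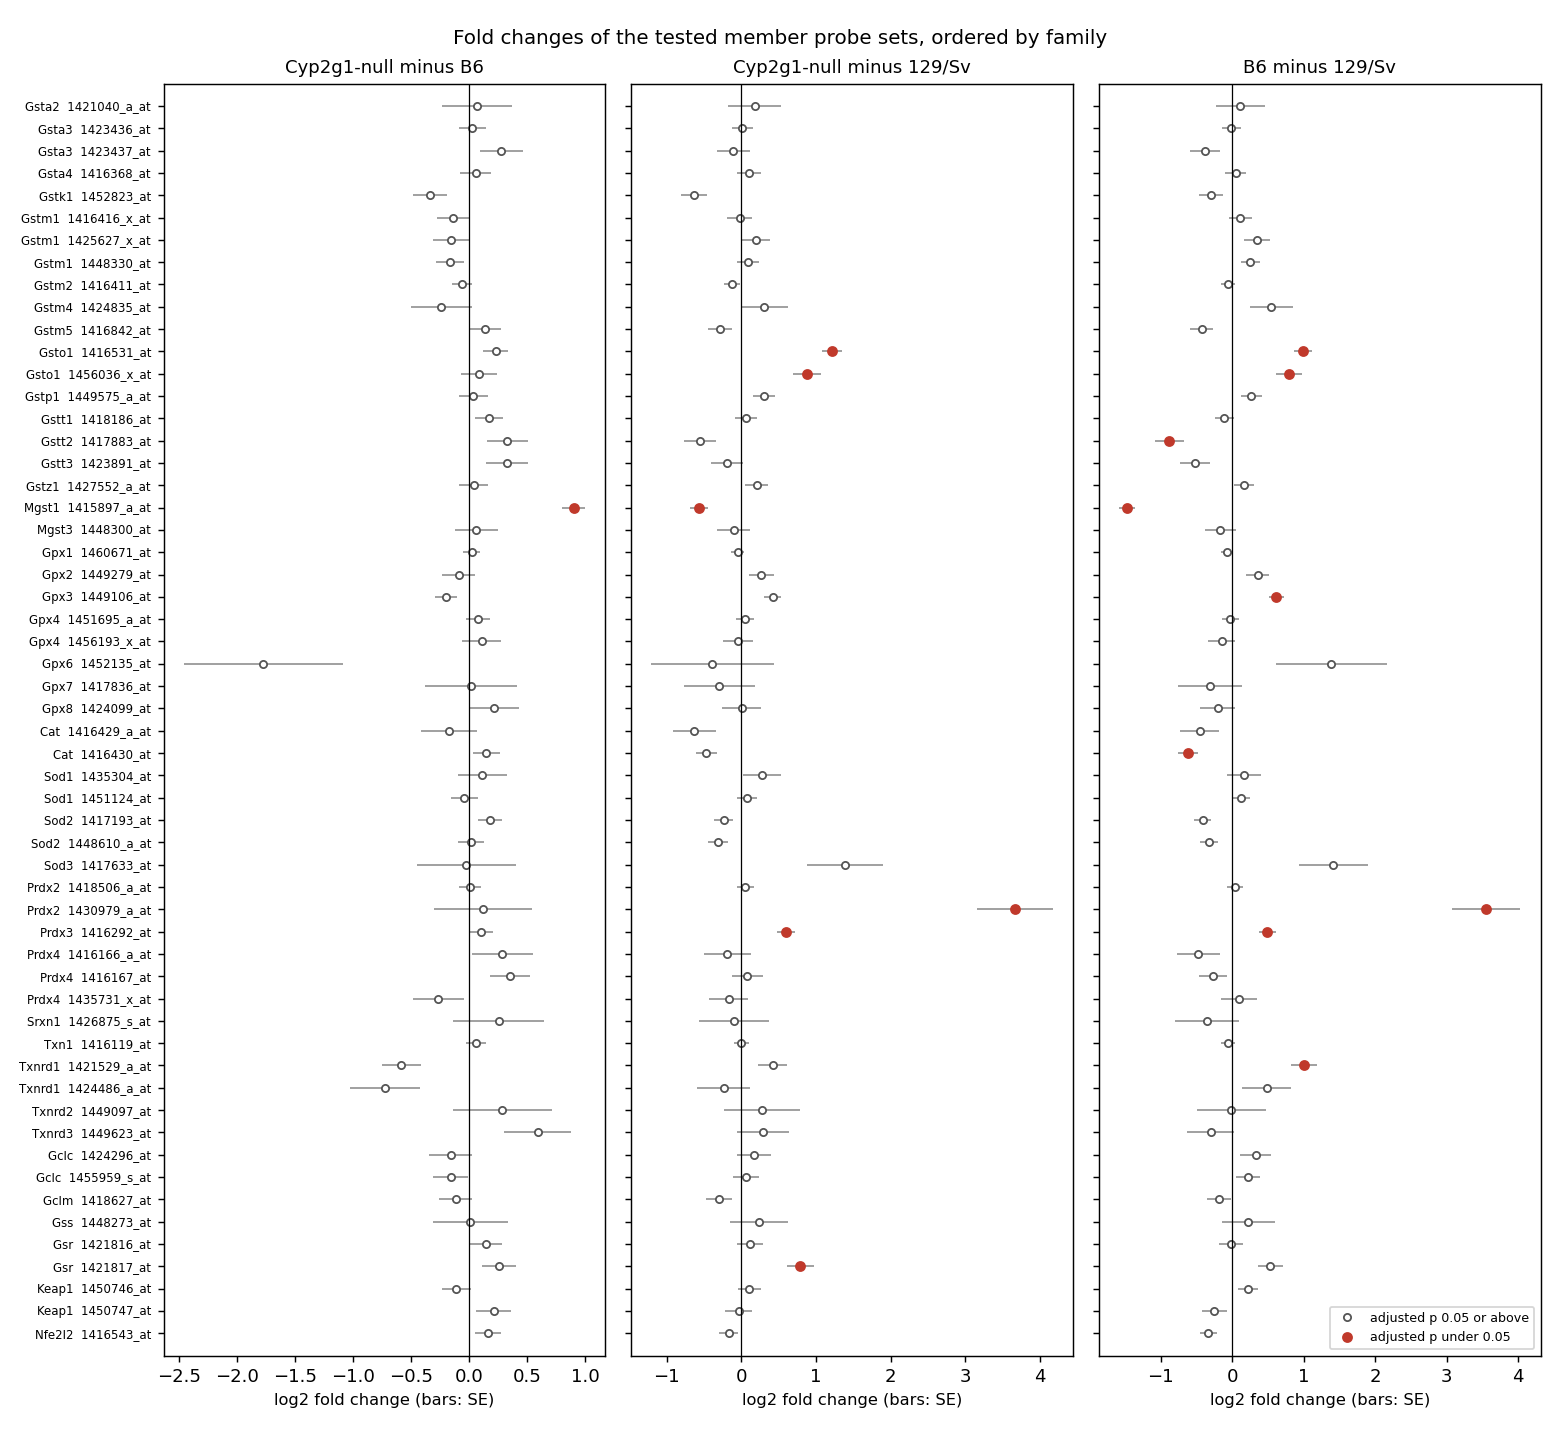
Log2 fold changes (x axis; bars show 1 SE) of the 56 tested member probe sets, in rows ordered by family, for Cyp2g1-null minus B6, Cyp2g1-null minus 129/Sv and B6 minus 129/Sv. Filled points passed an adjusted p of 0.05 (1, 6 and 9 probe sets); x axes differ between panels.

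The median log2 fold change of the 56 probe sets was 0.06 against B6 and 0.05 against 129/Sv, where medians over all 12575 were 0.02 and 0.00. With all 79 members and no filter, the medians were 0.06 and 0.07. Differences smaller than 0.5 on the log2 scale were seen in 51 of 56 probe sets for null minus B6 (91.1%, against 91.6% of all probe sets). For null minus 129/Sv they were seen in 46 of 56 (82.1%, against 89.3% of all), and for B6 minus 129/Sv in 43 of 56 (76.8%, against 86.6% of all).

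Among the transferases, Mgst1 set all 3 groups apart. It encodes a microsomal glutathione transferase that also has peroxidase activity. Its probe set 1415897_a_at had signals of 10276, 12275 and 10030 in null arrays, against 6380, 5267, 5814 and 5765 in B6 and 17125 and 15063 in 129/Sv arrays. The null arrays lay above every B6 array and below both 129/Sv arrays, with no overlap. Mgst1 was 1.86-fold higher in null than in B6 glands (log2 fold change 0.90, SE 0.101, adjusted p = 0.000243). Mgst1 was lower in null than in 129/Sv glands (log2 fold change -0.57, SE 0.121, adjusted p = 0.0247), and lower in B6 than in 129/Sv glands (-1.47, SE 0.115, adjusted p = 2.9e-06). On the log2 scale the null mean stood 38.8% of the way from 129/Sv to B6. The call against 129/Sv rested on single arrays: its adjusted p was 0.208 or 0.0764 when either 129/Sv array was dropped, and 0.109 or 0.107 when null array 1 or 3 was. Another Mgst1 probe set, 1415898_at, stayed below the median of every array and was not tested. Mgst3 had signals of 916, 895 and 970 in null, 1041, 637, 852 and 1097 in B6, and 1020 and 974 in 129/Sv arrays (adjusted p = 0.919 against each strain).

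Gsto1, an omega class transferase with thioltransferase and dehydroascorbate reductase activity, was about as high in null as in B6 glands and higher than in 129/Sv. Signals of its probe set 1416531_at were 5743, 5431 and 4780 in null arrays, against 4754, 4272, 4304 and 4802 in B6 and 2057 and 2514 in 129/Sv arrays. Null and B6 arrays overlapped, and all of them exceeded both 129/Sv arrays. The gene was 2.32-fold higher in null than in 129/Sv glands (log2 fold change 1.22, SE 0.13, adjusted p = 0.000109). Gsto1 was also 1.98-fold higher in B6 than in 129/Sv glands (log2 fold change 0.99, SE 0.123, adjusted p = 0.000197). Null against B6 differed by 0.23 (log2; SE 0.109, adjusted p = 0.362). The other probe set, 1456036_x_at, had 4823, 3102 and 4105 in null arrays, against 3596, 3086, 3800 and 4558 in B6 and 1971 and 2317 in 129/Sv arrays. It showed the same order, with null and B6 overlapping above 129/Sv. It gave 0.88 for null against 129/Sv (adjusted p = 0.0263) and 0.80 for B6 against 129/Sv (adjusted p = 0.0174). Dropping 129/Sv array 1 (0.2 and 0.184) or array 2 (0.0977 and 0.0611) ended its calls, and dropping null array 1 or 3 (0.117 and 0.0935) ended that of null against 129/Sv, while those of 1416531_at did not depend on any single array among the 9.

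**Figure D2:**
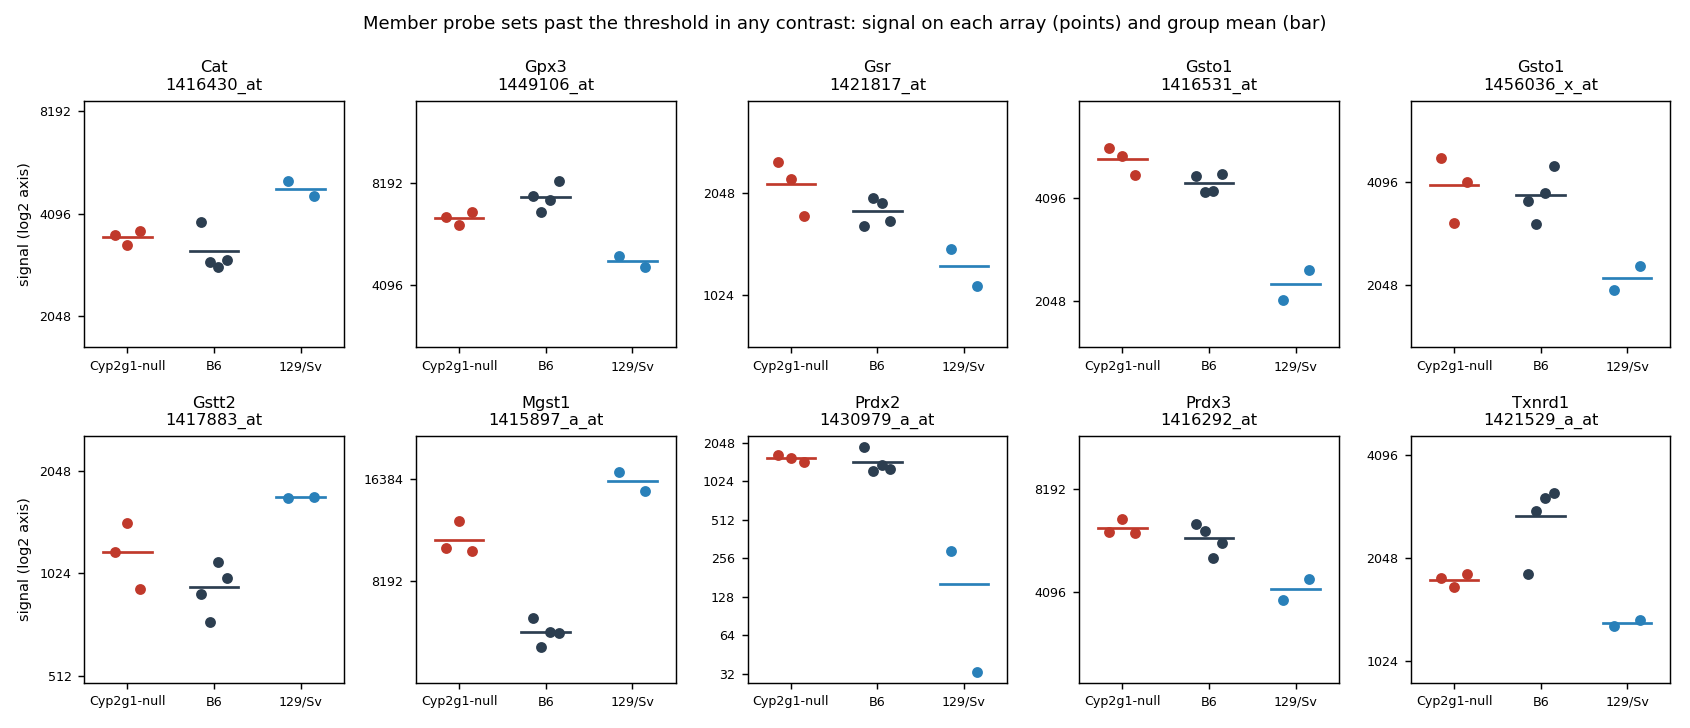
Signal (y axes, log2 scaled, ranges differ) on each Cyp2g1-null, B6 and 129/Sv array for the 10 member probe sets called in at least 1 comparison; points are arrays and bars are arithmetic group means. Mgst1 separates all 3 groups, and Prdx2 1430979_a_at is lowest on both 129/Sv arrays.

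The theta class genes Gstt1, Gstt2 and Gstt3 lie close together in the RefSeq gene table, with Gstt4 the 1 protein-coding gene between Gstt1 and Gstt2. Gstt2 had signals of 1178, 1440 and 924 in null arrays, against 891, 739, 1106 and 993 in B6 and 1707 and 1712 in 129/Sv arrays. Both 129/Sv arrays exceeded all others, while null and B6 overlapped. B6 was lower than 129/Sv (log2 fold change -0.88, SE 0.201, adjusted p = 0.0197), a call lost without 129/Sv array 1 or 2 (0.136 and 0.141) and without B6 arrays 1 and 2 (0.0708). Null glands passed against neither strain (log2 fold change 0.33 against B6, adjusted p = 0.424, and -0.55 against 129/Sv, adjusted p = 0.277). Gstt1 and Gstt4 lie between Gstt2 and Gstt3. Gstt3 had signals of 1618, 1474 and 2080 in null, 1619, 1673, 1233 and 1022 in B6, and 1757 and 2170 in 129/Sv arrays. B6 arrays lay below both 129/Sv arrays for Gstt3 too, but the difference did not pass (log2 fold change -0.52, adjusted p = 0.205; 0.0322 without B6 arrays 1 and 2). Gstt1 did not pass in any comparison (lowest adjusted p = 0.552).

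No alpha, mu, pi, kappa or zeta transferase was called in any comparison. The alpha class, active on lipid peroxidation products, had log2 fold changes between 0.03 and 0.28 for null against B6. Gsta4 had signals of 3813, 4212 and 3573 in null, 3865, 2861, 3916 and 4395 in B6, and 3528 and 3655 in 129/Sv arrays. Gsta2 was dimmer, with 444, 555 and 498 in null, 519, 303, 456 and 705 in B6, and 505 and 378 in 129/Sv arrays, and exceeded the array median on 2 of the 9 arrays. Groups overlapped for both genes.

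The mu class genes form an unbroken run in the RefSeq gene table (Gstm5, Gstm7, Gstm6, Gstm3, Gstm2, Gstm1, Gstm4). They are close paralogs, so some probe sets may bind the RNA of several members. Of their 12 probe sets 6 were tested, and log2 fold changes for null against B6 ran from -0.24 to 0.14. Gstm5 had signals of 9107, 10541 and 8286 in null, 10276, 6499, 8389 and 8943 in B6, and 12177 and 10524 in 129/Sv arrays. B6 lay below 129/Sv for Gstm5 without overlap, but the difference did not pass (-0.43, adjusted p = 0.158; 0.0427 without B6 array 1). Gstm4 had 403, 461 and 458 in null, 591, 574, 556 and 396 in B6, and 348 and 357 in 129/Sv arrays (adjusted p = 0.373 for B6 against 129/Sv). Its null and B6 arrays overlapped and stood above both 129/Sv arrays. Gstm4 exceeded the array median on 3 of the 9 arrays, all of them B6, so it was tested only through the group where it was high. Gstm3, Gstm6 and Gstm7 had no tested probe set.

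Gstp1, the pi class transferase, had signals of 7326, 10114 and 7628 in null, 8902, 7069, 7772 and 8658 in B6, and 6211 and 7193 in 129/Sv arrays. Null arrays exceeded both 129/Sv arrays and overlapped with B6, and no difference passed (log2 fold change 0.31 against 129/Sv, adjusted p = 0.445). Gstk1, the mitochondrial and peroxisomal kappa class enzyme, leaned the other way. Its signals were 1540, 1999 and 2158 in null, 2543, 2007, 2236 and 2843 in B6, and 2814 and 3061 in 129/Sv arrays. Null arrays lay below both 129/Sv arrays (log2 fold change -0.64, SE 0.175, adjusted p = 0.0914) and overlapped with B6 (-0.34, adjusted p = 0.301). Gstz1, an enzyme of tyrosine breakdown, had 1718, 1435 and 1462 in null, 1562, 1457, 1545 and 1415 in B6, and 1216 and 1456 in 129/Sv arrays (adjusted p = 0.686 for null against 129/Sv), with overlapping groups.

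Of the glutathione peroxidases, Gpx3 differed between the strains. It encodes the secreted plasma form. Signals were 6486, 6172 and 6702 in null arrays, against 7508, 6702, 7280 and 8257 in B6 and 4999 and 4652 in 129/Sv arrays. Both 129/Sv arrays lay below all others. Gpx3 was 1.54-fold higher in B6 than in 129/Sv glands (log2 fold change 0.62, SE 0.107, adjusted p = 0.00293; 0.0526 without 129/Sv array 2). Null glands passed against neither strain (0.42 against 129/Sv, adjusted p = 0.0834; -0.20 against B6, adjusted p = 0.352), with the null mean 67.5% of the way from 129/Sv to B6. Without B6 arrays 1 and 2 the adjusted p against 129/Sv was 0.0424. The summed signal of 11 endothelial and stromal markers was also higher in B6, at 90046 to 113189, than in 129/Sv, at 75344 to 79981, and was 75361 to 90508 in null arrays. The part of these cells in the Gpx3 difference was not tested.

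Gpx6, a peroxidase known from the olfactory mucosa, varied widely within groups. Signals were 592, 103 and 564 in null, 3123, 518, 667 and 1727 in B6, and 197 and 952 in 129/Sv arrays. The groups overlapped, and the log2 fold change of -1.77 for null against B6 had an SE of 0.685 (adjusted p = 0.243). Omp, the marker of mature olfactory neurons, had signals of 656, 814 and 1870 in null, 3323, 703, 1159 and 1514 in B6, and 607 and 815 in 129/Sv arrays (probe set 1422200_at). B6 array 1 was the highest for Gpx6, Omp and Cyp2g1 alike. On null array 3, Omp was above the B6 median and Gpx6 was not. The summed signal of 7 other genes of olfactory sustentacular cells and Bowman glands, Cyp2g1 among them, did not follow this order. It was 39697 to 45193 in null, 35039 to 50891 in B6 and 49151 to 52256 in 129/Sv arrays. The part of olfactory tissue in the Gpx6 signal was not tested.

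**Figure D3:**
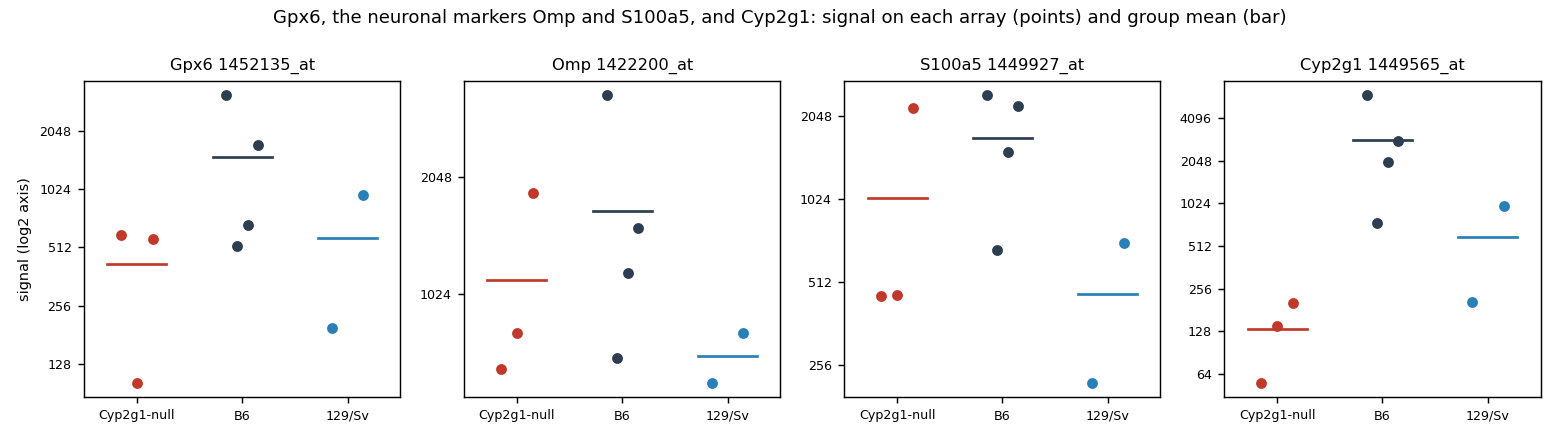
Signals (y axes, log2 scaled, ranges differ) of Gpx6, of Omp and S100a5, markers of olfactory neurons, and of Cyp2g1 on each Cyp2g1-null, B6 and 129/Sv array; points are arrays and bars are arithmetic group means. B6 array 1 is highest in every panel, at 3123 for Gpx6 and 3323 for Omp.

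The other tested peroxidase genes, Gpx1, Gpx2, Gpx4, Gpx7 and Gpx8, passed in no comparison, and Gpx5 was not tested. Gpx1, the general cytosolic form, was bright and even, between 31716 and 37104 over all 9 arrays (log2 fold change 0.02 for null against B6, SE 0.0748, and -0.05 against 129/Sv).

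Catalase, the peroxisomal enzyme that splits hydrogen peroxide, was lower in B6 than in 129/Sv glands. Cat probe set 1416430_at had signals of 3537, 3306 and 3634 in null arrays, against 3875, 2963, 2864 and 2999 in B6 and 5092 and 4601 in 129/Sv arrays. Both 129/Sv arrays stood above all others, and null arrays lay within the B6 range. The log2 fold change for B6 against 129/Sv was -0.62 (SE 0.134, adjusted p = 0.0137; 0.159 and 0.0618 without 129/Sv array 1 or 2). For null against 129/Sv it was -0.47 (adjusted p = 0.134; 0.0383 without B6 array 1). The dimmer Cat probe set 1416429_a_at gave -0.45 for B6 against 129/Sv and did not pass (adjusted p = 0.433).

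The superoxide dismutases did not pass in any comparison. Sod2, the mitochondrial enzyme, had signals of 7144, 6231 and 7189 in null, 7822, 6093, 6435 and 6887 in B6, and 7729 and 9369 in 129/Sv arrays (probe set 1448610_a_at; log2 fold change -0.31 for null against 129/Sv, adjusted p = 0.336). On that probe set null arrays lay below both 129/Sv arrays, and B6 overlapped with both groups. The other tested Sod2 probe set, 1417193_at, had 5941, 5738 and 4992 in null, 4955, 4188, 5160 and 5357 in B6, and 6375 and 6674 in 129/Sv arrays. There B6 lay wholly below 129/Sv, as did null, without passing (log2 fold change -0.41 for B6 against 129/Sv, SE 0.121, adjusted p = 0.0686). Sod3, the extracellular enzyme, had 347, 678 and 482 in null, 450, 390, 416 and 811 in B6, and 91.1 and 325 in 129/Sv arrays. It exceeded the array median on 2 of the 9 arrays, null array 2 and B6 array 4, and was tested only through these. Both 129/Sv arrays were lowest for Sod3, but its spread was large (log2 fold change 1.39 for null against 129/Sv, SE 0.514, adjusted p = 0.25). For B6 against 129/Sv it was 1.42 (adjusted p = 0.131; 0.0424 without 129/Sv array 2).

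The peroxiredoxins Prdx2 and Prdx3 separated 129/Sv from the other groups. Prdx3 is the mitochondrial peroxiredoxin. It had signals of 6103, 6686 and 6064 in null arrays, against 6474, 6168, 5143 and 5669 in B6 and 3874 and 4449 in 129/Sv arrays. Null and B6 arrays overlapped and stood above both 129/Sv arrays. Prdx3 differed by 0.59 (log2) in null against 129/Sv (SE 0.124, adjusted p = 0.022) and by 0.49 in B6 against 129/Sv (SE 0.118, adjusted p = 0.025). The call for null against 129/Sv was lost without any 1 of the 129/Sv or null arrays (adjusted p from 0.0635 to 0.198), and that for B6 against 129/Sv without 129/Sv array 1 or 2 (0.253 and 0.0605) or B6 array 2 (0.0556).

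Prdx2, a cytosolic peroxiredoxin abundant in red cells, differed at 1 of its 2 probe sets. Probe set 1430979_a_at had signals of 1640, 1549 and 1453 in null arrays, against 1892, 1241, 1362 and 1279 in B6 and 290 and 33.3 in 129/Sv arrays. The 129/Sv signals lay under their arrays' medians, so the size of the fold is uncertain. Prdx2 differed there by 3.67 (log2) for null against 129/Sv (SE 0.507, adjusted p = 0.000908) and 3.55 for B6 against 129/Sv (SE 0.481, adjusted p = 0.000415). For null against B6 it was 0.12 (adjusted p = 0.934). Leaving out 129/Sv array 1 or 2 moved these values to 4.99 or 2.35 for null and to 4.87 or 2.23 for B6, and both calls held. The brighter probe set 1418506_a_at showed no such pattern, with log2 fold changes of 0.05 for null against 129/Sv and 0.04 for B6 against 129/Sv (adjusted p = 0.923 and 0.889). Against the mean of both strains 1430979_a_at was called (adjusted p = 0.0376) and 1418506_a_at was not (0.941). The call of 1430979_a_at ended when B6 array 2, 3 or 4 was dropped (0.0619, 0.0661 and 0.0588), and likewise for null array 1, 2 or 3 (0.165, 0.149 and 0.128). Summed signals of 4 erythroid genes overlapped between groups, at 947 to 1932 in null, 796 to 1762 in B6 and 1617 to 1734 in 129/Sv arrays.

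**Figure D4:**
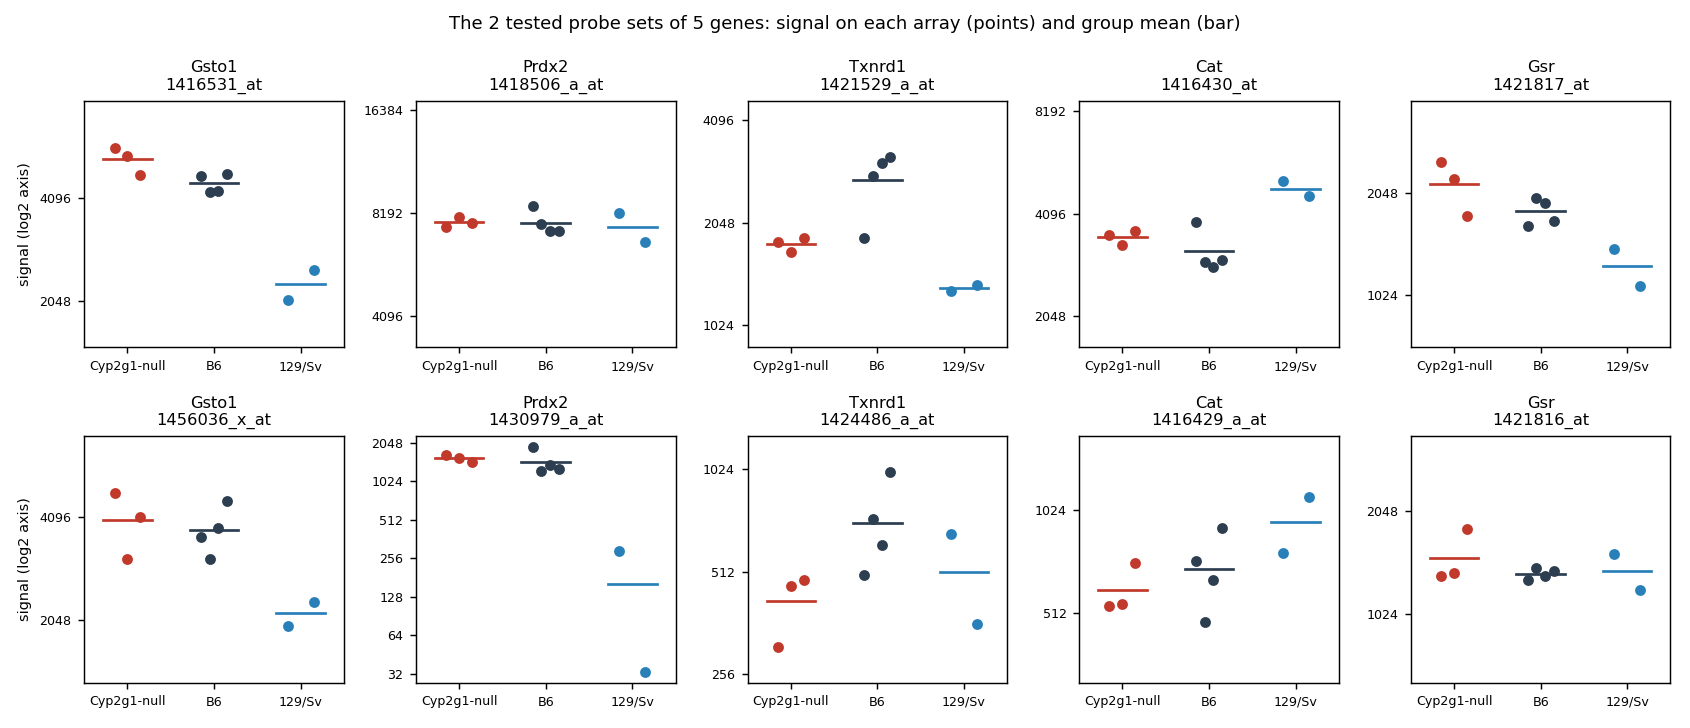
Signals (y axes, log2 scaled, ranges differ) of both tested probe sets of Gsto1, Prdx2, Txnrd1, Cat and Gsr, 1 gene per column, on each Cyp2g1-null, B6 and 129/Sv array; points are arrays and bars are arithmetic group means. The probe sets of Gsto1 share a pattern, whereas those of Prdx2 and Gsr differ.

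Prdx4, the peroxiredoxin of the endoplasmic reticulum, had signals of 1776, 2182 and 1623 in null, 1883, 1396, 1468 and 1135 in B6, and 1960 and 1554 in 129/Sv arrays (1416167_at). Its groups overlapped, and none of its 3 probe sets passed. Prdx1 was represented by 5 probe sets that also name Gm21399, which the rule therefore leaves out, and none of them passed (lowest adjusted p = 0.397).

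In the thioredoxin system, Txnrd1 stood out. It encodes the cytosolic selenoenzyme that reduces thioredoxin with NADPH and is an NRF2 target. Probe set 1421529_a_at had signals of 1793, 1680 and 1845 in null arrays, against 1845, 2808, 3072 and 3186 in B6 and 1294 and 1349 in 129/Sv arrays. B6 arrays 2 to 4 stood above all others, B6 array 1 lay within the null range, and both 129/Sv arrays were lowest. Txnrd1 was 2.01-fold higher in B6 than in 129/Sv glands (log2 fold change 1.01, SE 0.188, adjusted p = 0.00535; 0.0622 without 129/Sv array 1). Null against B6 differed by -0.59 (log2; SE 0.166, adjusted p = 0.0915), and B6 array 1 decided this call, since without it the value was -0.76 (adjusted p = 0.0019). Against 129/Sv it was 0.42 (adjusted p = 0.428), and the null mean stood 41.6% of the way from 129/Sv to B6. The dimmer Txnrd1 probe set 1424486_a_at gave -0.72 for null against B6 and 0.48 for B6 against 129/Sv and did not pass (adjusted p = 0.287 and 0.525).

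Txn1, the cytosolic thioredoxin, was even. Signals were 11854, 12935 and 11924 in null, 11820, 11024, 11505 and 12681 in B6, and 11523 and 12970 in 129/Sv arrays (log2 fold change 0.06 for null against B6, SE 0.085). Txnrd3, a reductase with a glutaredoxin domain, had 670, 611 and 567 in null, 522, 526, 370 and 259 in B6, and 582 and 428 in 129/Sv arrays. Null arrays lay above every B6 array, but the difference did not pass (0.59, SE 0.29, adjusted p = 0.377). Srxn1, the sulfiredoxin that repairs overoxidised peroxiredoxins, ranged widely, with 346, 538 and 681 in null, 282, 276, 417 and 937 in B6, and 567 and 513 in 129/Sv arrays. Its groups overlapped (adjusted p = 0.816 against B6).

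No probe set of the glutathione synthesis genes Gclc, Gclm and Gss was called in any comparison. Gclc, the catalytic subunit of the rate-limiting ligase, had signals of 3715, 3146 and 3990 in null, 3245, 3250, 4459 and 5571 in B6, and 2658 and 3860 in 129/Sv arrays (1424296_at). The groups overlapped, with log2 fold changes of -0.16 against B6 and 0.17 against 129/Sv (adjusted p = 0.748 and 0.858). Gclm, its modifier subunit, had 2669, 2867 and 3101 in null, 2865, 2565, 3134 and 4117 in B6, and 3731 and 3370 in 129/Sv arrays. Null arrays lay below both 129/Sv arrays without passing (-0.30, SE 0.172, adjusted p = 0.548). Gss had 616, 461 and 737 in null, 1041, 518, 638 and 351 in B6, and 418 and 604 in 129/Sv arrays (adjusted p = 0.995 against B6), and its groups overlapped.

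Gsr, the reductase that regenerates glutathione, was higher in null than in 129/Sv glands at 1 of its 2 probe sets. Probe set 1421817_at had 2525, 2250 and 1750 in null arrays, against 1640, 1977, 1908 and 1687 in B6 and 1404 and 1087 in 129/Sv arrays. Null arrays exceeded both 129/Sv arrays and overlapped with B6. On the log2 scale the difference was 0.79 against 129/Sv (SE 0.179, adjusted p = 0.036) and 0.26 against B6 (adjusted p = 0.462). This call depended on 129/Sv array 2 (adjusted p = 0.399 when it was left out), on null arrays 1 and 2 (0.155 and 0.13) and on B6 array 3 (0.0522), and it also ended with equal array medians (0.0544). The other Gsr probe set, 1421816_at, gave 0.12 against 129/Sv and did not pass (adjusted p = 0.87).

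Neither regulator, Nfe2l2 or Keap1, was called in any comparison. Nfe2l2 had signals of 3829, 3146 and 3556 in null, 2975, 2981, 3175 and 3397 in B6, and 3667 and 4229 in 129/Sv arrays. Null arrays overlapped with both strains, while B6 lay below 129/Sv without passing (log2 fold change -0.33, SE 0.123, adjusted p = 0.167). Keap1 had 2470, 2258 and 2808 in null, 2421, 2496, 2787 and 3189 in B6, and 2232 and 2415 in 129/Sv arrays (1450746_at; adjusted p = 0.73 against B6 and 0.863 against 129/Sv). Its probe sets disagreed in sign between the strains. On 1450746_at B6 lay above 129/Sv (log2 fold change 0.22, adjusted p = 0.477), and on 1450747_at it lay below (-0.25, adjusted p = 0.511). Nqo1, a quinone reductase, and Hmox1, the inducible heme oxygenase, were dim and were not tested. Nqo1 had 170, 306 and 244 in null, 152, 295, 330 and 550 in B6, and 268 and 257 in 129/Sv arrays. Hmox1 had 197, 340 and 358 in null, 233, 275, 89.8 and 408 in B6, and 109 and 120 in 129/Sv arrays. Both overlapped between null and B6, and Hmox1 was lower on both 129/Sv arrays than on any null array.

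**Figure D5:**
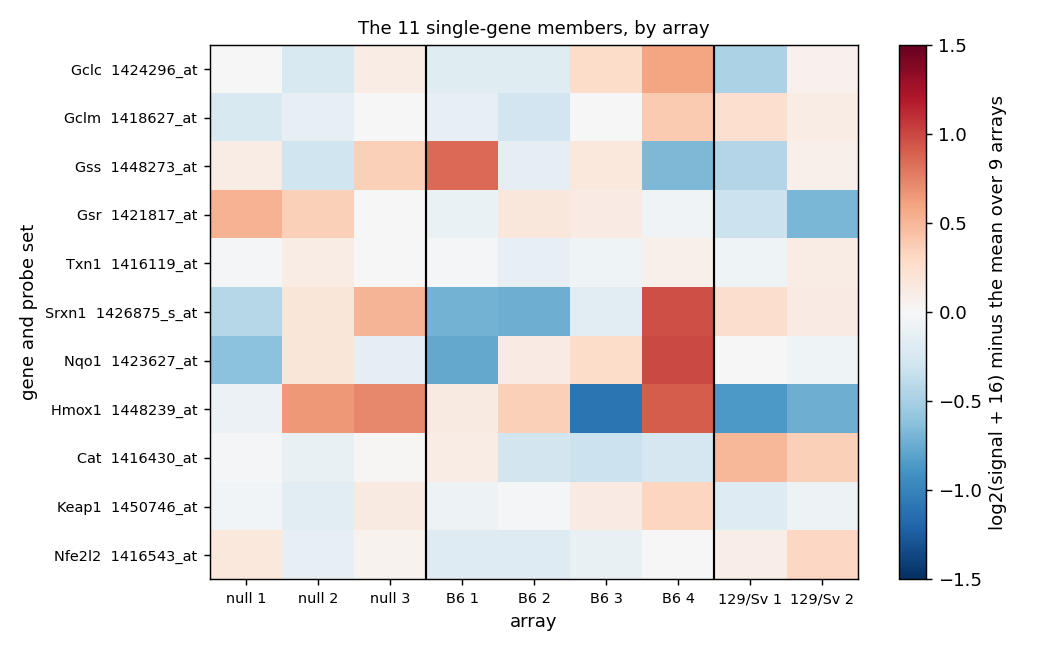
Log2(signal + 16) minus its mean over 9 arrays (colour) for the brightest probe set of each of the 11 single genes (rows) on the 3 Cyp2g1-null, 4 B6 and 2 129/Sv arrays (columns). B6 array 4 was highest for the dim Srxn1, Nqo1 and Hmox1 (signals of 937, 550 and 408) and for Gclc, Gclm and Keap1 (5571, 4117 and 3189). It was not highest for Gss, Gsr, Txn1, Cat or Nfe2l2.

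Of the 79 members, 23 probe sets were not tested, with signals between 7.3 and 671. They include every probe set of Gpx5, Gstm3, Gstm6, Gstm7, Gstp3, Hmox1, Mgst2 and Nqo1. Detection calls were not used here, so whether these genes were above background is unknown.

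Genes of the same pathways that the symbol rule leaves out were read from lists. Of 32 tested probe sets for glutathione handling, 5 rose in null against B6, 3 of Glo1 and 2 of Glrx, and none fell (background 1.11% and 1.07%). Between the strains 6 were lower in B6 (background 2.27%), those of Glo1, Glrx and Hagh. Glo1, glyoxalase I, which uses glutathione to detoxify methylglyoxal, had signals of 8708, 7757 and 8721 in null arrays, against 4967, 4272, 3947 and 3883 in B6 and 12175 and 11222 in 129/Sv arrays (1424109_a_at). Like Mgst1, it separated the 3 groups without overlap (log2 fold change 0.98 for null against B6, SE 0.103, adjusted p = 0.000177; -0.48 against 129/Sv, adjusted p = 0.0707; -1.46 for B6 against 129/Sv, adjusted p = 3.39e-06). Glrx, a glutaredoxin that removes glutathione from protein thiols, had 1679, 2246 and 2234 in null, 1163, 1156, 1044 and 968 in B6, and 2549 and 2536 in 129/Sv arrays (1416592_at). Null and 129/Sv arrays stood above every B6 array (0.90 for null against B6, SE 0.136, adjusted p = 0.00248). Hagh, glyoxalase II, was lower in null than in 129/Sv glands (-0.53, SE 0.126, adjusted p = 0.0479).

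In the thioredoxin list, 2 of 42 tested probe sets fell in null against B6 (background 1.07%), and 0 were called with limma against 129/Sv (background 2.04%), with 3 at an unadjusted p under 0.05 (background 12%). Between the strains, 3 of 42 were higher in B6 (background 2.92%), those of Pdia6, Selenom and Txnl4a. Pdia6, a disulfide isomerase of the endoplasmic reticulum, had 4785, 6395 and 6837 in null, 10044, 14081, 13201 and 13569 in B6, and 5837 and 7150 in 129/Sv arrays (log2 fold change -1.09 for null against B6, SE 0.142, adjusted p = 0.000855). Selenom, a selenoprotein of the same compartment, had -0.62 (SE 0.0931, adjusted p = 0.00248). For both genes null and 129/Sv arrays lay together below B6. Txnl4a, a spliceosome component with a thioredoxin fold, was called between the strains alone (1.33 for B6 against 129/Sv, adjusted p = 0.0291). Its signals were 316, 528 and 520 in null, 864, 662, 538 and 871 in B6, and 227 and 337 in 129/Sv arrays. Only B6 arrays exceeded their array's median. Txnl4a was thus tested only through the group where it was higher, and its call is not independent of that filter.

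Among 49 tested probe sets of other NRF2 targets and partners, 1 was called in null glands against B6 and 0 with limma against 129/Sv, where 2.18% and 2.04% of all probe sets were called. At an unadjusted p under 0.05, 7 of the 49 passed against 129/Sv (background 12%). The 1 called was Adh7, an alcohol and retinol dehydrogenase, with 1082, 1131 and 1225 in null, 2197, 1968, 2321 and 3119 in B6, and 1085 and 1500 in 129/Sv arrays (log2 fold change -1.04 for null against B6, SE 0.165, adjusted p = 0.00339). Null arrays lay below every B6 array and overlapped with 129/Sv. Blvrb, a biliverdin reductase, was lower in B6 than in 129/Sv glands (-0.96, SE 0.226, adjusted p = 0.0223). Over the 49 probe sets of this NRF2 list, the median log2 fold change was 0.07 for null against B6 and -0.04 for null against 129/Sv.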

How the data were processed

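RNA of the lateral nasal gland was measured on 9 1-colour Affymetrix arrays, 1 pool of 10 mice per array. The authors deposited linear signal intensities; the submitters' processing notes name MAS5. The MAS5 version and the genome build are not given in the sources used here. Trimmed means were 1500.6 on every array after 2% of values at each end were left out, which is how scaling to 1 level would leave them. The number of arrays limits the precision.

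From the 22690 probe sets, 64 controls were left out. Symbols came from the platform annotation, where 20380 probe sets had 1 symbol, 691 several and 1555 none; all 49 members matched RefSeq by gene ID, with 0 symbols altered. Probe sets above their array's median on at least 2 arrays entered a fit with limma 3.58.1 in R 4.3.3 on log2(signal + 16), with a mean per group, eBayes with trend and 4 contrasts. The unit was the probe set because the member rule is stated in probe sets. The fit was tested on simulated data with known changes. Named with values were every called member, the brightest probe set of each single gene, the 2 genes per family with the largest F at their brightest probe set, and up to 4 called genes of each pathway list; Gpx1, Gstt1, Mgst1 1415898_at, Obp1a, Omp, Prdx1 and Sod2 1417193_at were named after their values were seen. The members and lists were chosen with earlier results of these data known. Alternatives covered normalization, pseudocount, filter, probe set choice, variance model, array weights, a replicate block, the groups fitted, the threshold and each array left out. The labels give no scan date.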

Additional observations from a re-analysis of the deposited data

Results flagged for a closer look

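Among the 33 named member probe sets, Dixon's test of the 4 B6 arrays at its 95% critical value set apart an array for Cat and for Gstm4. Chance alone does so in about 1 in 20 groups. For Cat (1416430_at), the gap of B6 array 1 (signal 3875) to the nearest B6 array was 0.848 of the group's range on that log2 scale. For Gstm4 (1424835_at), the gap of B6 array 4 (signal 396) was 0.847 of the range on the same scale.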

How the results depend on the processing

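Of 18 calls on single members, 7 held under every alternative that kept their probe set: Gsto1 1416531_at in 3 comparisons, Mgst1 in null against B6 and in B6 against 129/Sv, and Prdx2 1430979_a_at against 129/Sv in null and B6. Probe sets of Mgst1 and Prdx2 were absent where those ending in _a_at were left out. No call reversed, and 13 values gained a call under some alternative. Counts of called members depended on 129/Sv having 2 arrays, since leaving out 1 leaves a lone array assumed to vary like the rest. Leaving out 1 array gave 1 to 2 called members for null against B6 (1 in the report), 2 to 7 for null against 129/Sv (6), 1 to 2 against the mean (2), 4 to 10 for B6 against 129/Sv (9) and 0 to 0 against both strains. For null against B6, 0 were called without probe sets ending in _s_at, _x_at or _a_at, and 2 with array weights or without B6 arrays 1 and 2. For null against 129/Sv, 3 were called without those probe set types, 2 with eBayes without trend and 2 at an adjusted p of 0.01. Against the mean, 1 was called with a pseudocount of 1, no filter, a filter at the 75th percentile, 1 probe set per gene, without those probe set types, with eBayes without trend or at an adjusted p of 0.01. For B6 against 129/Sv, 5 were called without those probe set types and 5 at 0.01. Fewer probe sets, or a stricter threshold, account for some of these by construction. For the others the cause was not tested. The counts of called members in this section stand without the share of all probe sets called under each alternative. They therefore do not tell a change among members from a change over the whole array. With the replicate number as a block, 1, 5, 2 and 7 members were called in the same order of comparisons; Mgst1 against 129/Sv (adjusted p = 0.0651), Gstt2 (0.0653) and Gsto1 1456036_x_at (0.0645) between the strains lost their calls, and the numbers did not pair the arrays (correlations of deviations from -0.075 to 0.0963 over 7 same-numbered pairs). Without B6 arrays 1 and 2, the NRF2 list had 9 called probe sets in any pairwise comparison, against 2 in the report. The share of all probe sets called in any pairwise comparison was computed for neither setting. This rise therefore cannot be told from a rise over the whole array.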
